A study of Mus musculus with 6 samples.

Results

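The genes examined were 34 members of glycolysis, of the pentose phosphate pathway and of their immediate control, out of 19977 genes in the table. They were chosen by name: glucose and lactate carriers, the enzymes from hexokinase to lactate dehydrogenase, the kinases that set fructose 2,6-bisphosphate and restrain pyruvate dehydrogenase, 6 pentose phosphate enzymes, and Hif1a. Of these, 33 had a mean FPKM of at least 1 and were tested, and Aldoc, an aldolase isozyme of the nervous system, did not reach it, with 4 to 38 counts per library. FPKM is a read count scaled by transcript length and library total, and it is the only scale used here to compare one gene with another.

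Both groups consisted of CD4+ T cells, sorted by flow cytometry from spleen plus lymph nodes; all mice were wild type and of the strain C57BL/6. The young mice were 6 to 8 weeks old and the old mice 11 months old. All cells had been stimulated for 6 hours with antibodies to CD3 and CD28, which together trigger the T-cell receptor and its costimulatory receptor, so that the groups differ by age and no unstimulated cells were compared. There were 3 libraries per group, and nothing in the labels says that each came from its own animal; every p-value here reflects only how far libraries of a group vary, part of which may be technical.

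Glycolysis splits glucose into pyruvate with a net gain of ATP and NADH, and lactate dehydrogenase turns pyruvate into lactate while restoring NAD. The pentose phosphate pathway branches off at glucose 6-phosphate and supplies NADPH and ribose 5-phosphate for nucleotides. Resting T cells use little glucose; on activation through the T-cell receptor they raise both pathways, under the control of regulators such as Myc and HIF-1, whose oxygen-regulated subunit is encoded by Hif1a.

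Expected counts per library totalled 16932551 to 18708205. Across genes, young replicate 1 correlated with young replicates 2 and 3 at 0.924 and 0.911, whereas those 2 libraries correlated with each other at 0.977. Summed markers of naive T cells (Ccr7, Tcf7, Lef1, Klf2 and Il7r) stood at 5710, 3041 and 2640 CPM in young replicates 1, 2 and 3, and at 2181, 1737 and 1798 CPM in old replicates 1, 2 and 3; CPM is the gene's count scaled by the TMM-adjusted library total. Summed activation markers (Cd69, Il2ra, Myc, Tfrc and Cd44) stood at 1091, 2169 and 1680 CPM in young and at 2319, 2797 and 3428 CPM in old libraries. Young replicate 1 therefore had the highest sum of naive and the lowest sum of activation markers of the 6 libraries. The naive markers did not all move together: young replicate 1 lay above both other young libraries for 4 of the 5 and below both for 1. Without that library, edgeR called 1 of the 5 higher and 1 lower in old libraries. Of the 5 activation markers it called 1 higher with all 6 libraries, 2 higher without young replicate 1, and 0 lower. The sorted identity held in the markers: summed CD4 T-cell genes, 6 of 7 of which were used, ranged from 2214 to 2621 CPM in young and from 2351 to 2941 CPM in old libraries. Markers of other cells summed to less: 13.7 to 39.6 against 16.8 to 27.8 CPM for 7 B-cell genes, 31.4 to 67.8 against 4.54 to 25.4 CPM for 8 neutrophil genes, and 50.5 to 103 against 32.5 to 41.0 CPM for 6 natural killer genes, young against old in each case. In the same order, 6 dendritic-cell genes summed to 16.2 to 23.4 against 26.3 to 30.9 CPM, 2 CD8 T-cell genes to 16.6 to 27.5 against 11.3 to 14.6 CPM, and 7 macrophage and monocyte genes to 14.8 to 22.6 against 12.6 to 17.5 CPM. Sums for 8 erythroid and 5 platelet genes reached at most 5.60 and 6.71 CPM. Young and old libraries did not overlap in the neutrophil, natural killer, CD8 and dendritic-cell sums. Nor did they overlap in the sums of naive and activation markers, with or without young replicate 1. No marker of these lists was at 0 in every library. The part of these state and cell-type differences in the results that follow was not tested, and in bulk RNA fewer cells of a type cannot be told apart from less RNA per cell. Each later series of values gives the libraries in the order of replicates 1, 2 and 3.

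The comparison asked whether transcripts of glucose metabolism differ with age at each step of the pathways, and how far the answer rests on young replicate 1. With all 6 libraries, 0 of the 33 members were called. A call means a Benjamini-Hochberg adjusted p under 0.05, over 10509 genes, by the quasi-likelihood test of edgeR, and 0.875% of those genes were called, 0.742% higher and 0.133% lower in old libraries. At an unadjusted p under 0.05 there were 7 members, against 10.6% of all tested genes. DESeq2 called 2 members, Hif1a higher and Pfkm lower in old libraries, against 4.77% of all genes (3.56% higher and 1.21% lower). The members' median log2 difference, old minus young, was -0.15, with 22 of 33 negative, while the median of all tested genes was -0.03 with 55.1% negative. Quantile or TPM scaling left 18 of the 33 negative. The groups did not overlap for 7 members, 3 higher and 4 lower in old libraries, against 16.4% of all tested genes in either direction.

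Without young replicate 1, 5 of 33 members were called: Hif1a rose in old libraries, and Tpi1, Pgam1, Pgd and Slc16a3 fell. Of all tested genes, 8.84% were called in that fit, 5.86% higher and 2.98% lower. At an unadjusted p under 0.05 there were 18 members, against 28.1% of all genes. The median log2 difference of the members became -0.35 with 26 of 33 negative, against 0.01 and 49.0% negative for all tested genes. With limma on log2(TPM + 1), a scaling that moved the median of all genes to 0.14, the members' median was -0.17 with 21 negative. Old libraries lay below both remaining young libraries for 20 members, against 23.2% of all tested genes, and above both for 4 members, against 24.3%. The fit without young replicate 1 compares young replicates 2 and 3 with the 3 old libraries. Young replicate 1 was the lowest young library for most members, so leaving it out raises their young mean by construction. The p-values of that fit do not allow for a library having been singled out on these same data.

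The count of 5 itself depended on further choices. DESeq2 called 16 members without young replicate 1, 2 higher and 14 lower, against 17.1% of all genes (9.43% higher and 7.62% lower). Leaving out old replicate 2 as well left 0 members called by edgeR, against 227 of all 10509 genes. At an unadjusted p under 0.05 there were then 17 members, against 2142 of all genes. Leaving out old replicate 3 left 3 calls, Hif1a, Tpi1 and Slc16a3, against 633 of all genes. Without old replicate 1 there were 6, against 861 of all genes. Fits that also left out young replicate 2 or 3 hold 1 young library, so their calls are not interpreted. Their counts enter only the range given under the dependence on processing. The members' median log2 difference in these fits was -0.25 and -0.26 respectively.

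Young replicate 1 held less of most of these transcripts than the other young libraries. It lay below both of them for 23 of 33 members, against 41.2% of all tested genes, and above both for 8 members, against 45.7%. The median log2 ratio of young replicate 1 to the mean of young replicates 2 and 3 was -0.69 over the members and 0.05 over all tested genes. The 17 enzymes from hexokinase to lactate dehydrogenase together made up 0.535%, 0.925% and 0.872% of the summed FPKM in young libraries and 0.807%, 0.810% and 0.730% in old libraries. For the 6 pentose phosphate enzymes these shares were 0.0554%, 0.0781% and 0.0716% in young and 0.0652%, 0.0679% and 0.0603% in old libraries. In both pathways the old libraries sat between young replicate 1 and the other young libraries.

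**Figure D1:**
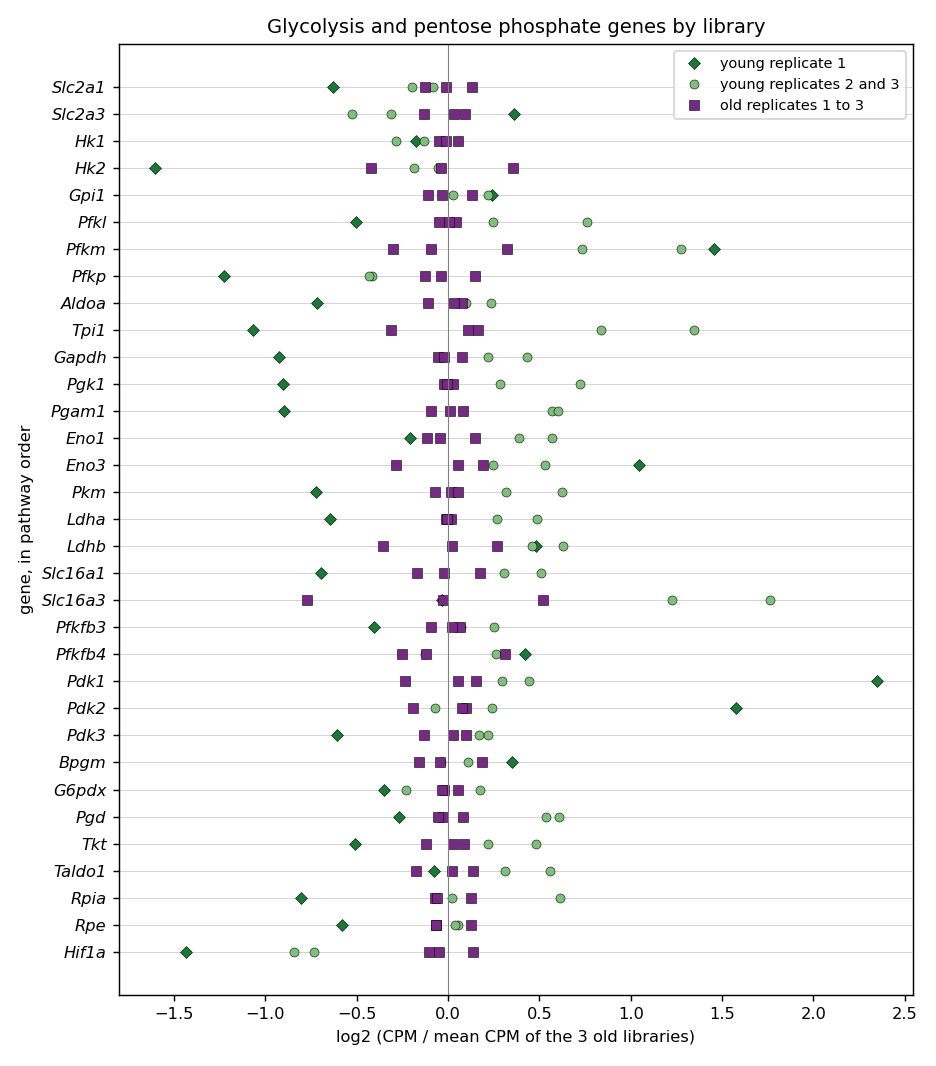
Level of each tested member in each library as the log2 ratio of its CPM to the mean CPM of the 3 old libraries (x axis), with genes in pathway order (y axis); diamonds are young replicate 1, circles young replicates 2 and 3, squares the old libraries. For most genes from Aldoa to Ldha the diamond lies to the left of the squares and the circles to their right, and Hif1a and Pfkp have all 3 young libraries to the left.

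**Figure D2:**
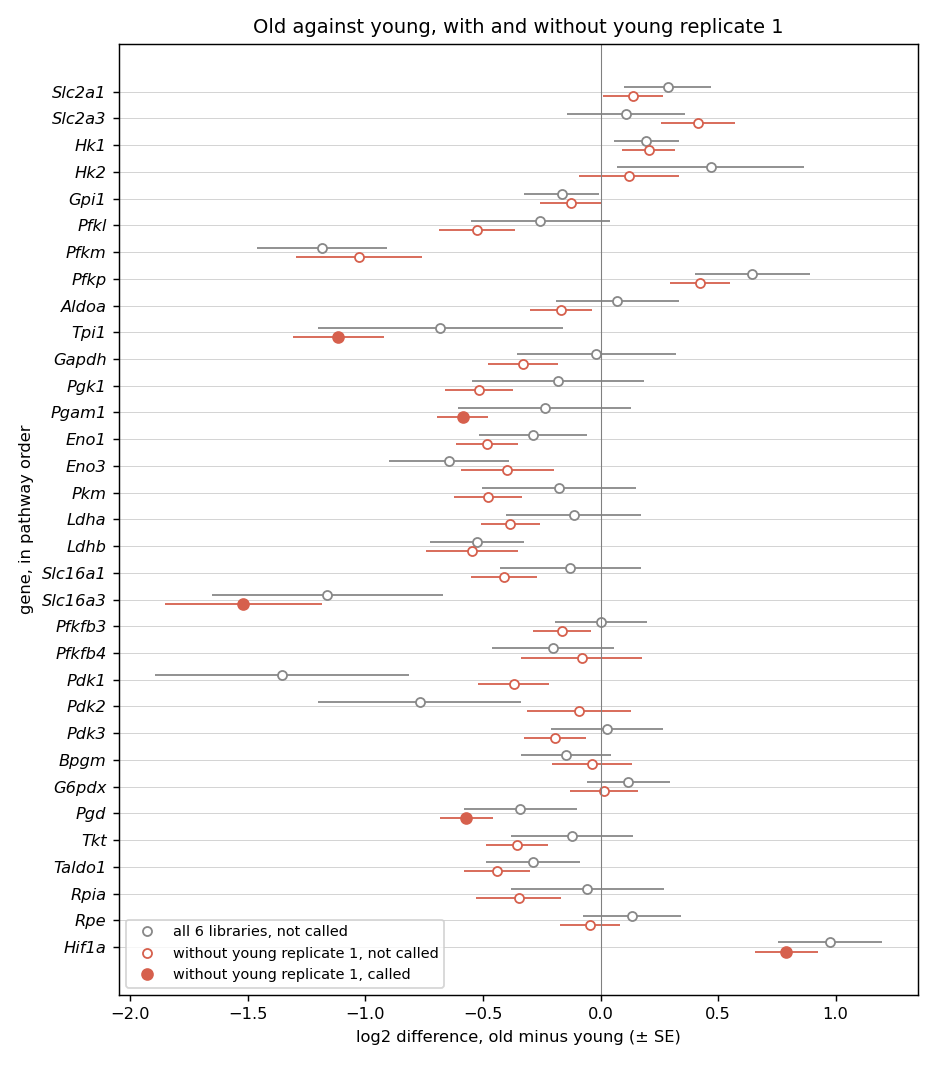
Log2 difference, old minus young, with its standard error, for each tested member in the fit of all 6 libraries (grey) and in the fit without young replicate 1 (red); filled points passed an adjusted p of 0.05 in edgeR. No grey point is filled and 5 red ones are: Tpi1, Pgam1, Slc16a3 and Pgd to the left of 0 and Hif1a to the right; some uncalled genes close to 0, such as Gapdh and Aldoa, change sign with the scaling or the libraries used.

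The promoters of the 5 members called without young replicate 1 are shown because Hif1a encodes a factor whose DNA sites include the letters ACGTG. Hif1a also moved in the opposite direction to the other 4. Each sequence is the 250 bases before an annotated start of the gene, on GRCm38.p6, written 5′ to 3′ on the gene's strand. For Hif1a and Slc16a3 that start is not the outermost one, and the window lies inside the gene span given below. Every ACGTG on either strand (ACGTG or CACGT) is in capitals. CACGTG, the E-box, holds both forms at once. For Pgd the first of its windows in the table is given.
Hif1a, chr12:73907617-73907866, plus strand: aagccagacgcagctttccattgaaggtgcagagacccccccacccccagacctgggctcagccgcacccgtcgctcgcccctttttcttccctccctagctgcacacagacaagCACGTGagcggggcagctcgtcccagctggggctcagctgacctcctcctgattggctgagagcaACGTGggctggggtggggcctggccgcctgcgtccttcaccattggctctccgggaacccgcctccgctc
Tpi1, chr6:124814159-124814408, minus strand: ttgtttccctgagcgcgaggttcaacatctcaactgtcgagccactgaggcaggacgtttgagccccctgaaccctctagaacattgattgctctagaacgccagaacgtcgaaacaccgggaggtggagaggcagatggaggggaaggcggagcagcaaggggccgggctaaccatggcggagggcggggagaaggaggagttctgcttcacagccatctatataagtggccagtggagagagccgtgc
Pgam1, chr19:41911621-41911870, plus strand: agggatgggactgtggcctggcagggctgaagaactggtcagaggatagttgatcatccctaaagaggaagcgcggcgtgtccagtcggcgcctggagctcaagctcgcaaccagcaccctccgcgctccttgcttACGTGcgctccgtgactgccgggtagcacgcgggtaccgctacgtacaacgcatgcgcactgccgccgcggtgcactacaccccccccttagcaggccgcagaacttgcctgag
Pgd, chr4:149166706-149166955, minus strand: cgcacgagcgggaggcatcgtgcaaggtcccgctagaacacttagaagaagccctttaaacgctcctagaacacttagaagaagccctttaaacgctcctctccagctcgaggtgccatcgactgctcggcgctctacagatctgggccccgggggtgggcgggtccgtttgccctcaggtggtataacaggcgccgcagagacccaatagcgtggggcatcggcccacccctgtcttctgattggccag
Slc16a3, chr11:120948817-120949066, plus strand: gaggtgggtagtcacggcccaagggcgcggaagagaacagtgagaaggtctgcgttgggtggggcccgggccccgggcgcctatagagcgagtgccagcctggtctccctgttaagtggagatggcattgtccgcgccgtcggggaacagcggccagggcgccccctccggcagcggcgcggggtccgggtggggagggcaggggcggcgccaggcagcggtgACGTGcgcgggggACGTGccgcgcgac
The Hif1a window held a CACGTG and a separate ACGTG, the Slc16a3 window held ACGTG at 2 places, the Pgam1 window at 1, and these letters were absent from the windows of Tpi1 and Pgd. Among the 33 members with an entry in the table, 14 (42.4%) had ACGTG on either strand in at least 1 window, against 18.5% of all 27025 genes in the table and 25.8% of the 8510 tested genes with an entry. A gene with more windows has more places for a match. By window, ACGTG was in 35.4% of the members' 48 windows, against 16.6% of all 32851 and 22.3% of the tested genes' 10790. CACGTG was present for 6 members (18.2%), against 6.86% and 10.3% of genes. These counts describe letters, not bound sites, and other letters that the factor may bind were not searched.

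Hif1a (chr12:73901324-73947554), the oxygen-regulated subunit of HIF-1, which activates many glycolytic genes, was the only member called higher in old libraries by edgeR without young replicate 1. It stood at 321, 521 and 483 CPM in young and at 809, 956 and 840 CPM in old libraries. The groups did not overlap, and the lowest old library was above the highest young library. The log2 difference was 0.98 ± 0.22 (SE, n = 3 each), with adjusted p of 0.119 by edgeR and 0.0028 by DESeq2. With young replicate 1 left out, Hif1a rose by 0.79 ± 0.13 on the log2 scale (1.73-fold), with an edgeR adjusted p of 0.0145. Hif1a was called in 8 of 8 other settings of that fit, with a DESeq2 adjusted p of 5.59e-08. With old replicate 2 also left out, edgeR did not call it. Over the 8 settings and 5 fits that left out a second library, the log2 difference of Hif1a ran from 0.71 to 0.93. Of 5 RefSeq models of the gene, a predicted one, XM_017314961.1, held the largest share of its FPKM in every library, 37.3% to 59.6% in young and 48.5% to 58.7% in old libraries.

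Glucose carriers were not called by edgeR in either fit. Slc2a1 (GLUT1), the main glucose carrier of activated T cells, stood at 53.9, 78.8 and 73.0 CPM in young and at 76.4, 82.7 and 91.4 CPM in old libraries, with overlap between the groups. Slc2a3 (GLUT3), a high-affinity carrier, stood at 30.6, 19.2 and 16.5 against 25.4, 21.7 and 24.3 CPM. In FPKM terms Slc2a1 held 73.3% to 87.0% of the summed level of the 2 carriers in young and 82.3% to 85.3% in old libraries. Slc2a1 was thus the more abundant carrier transcript in each library.

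Hexokinases trap glucose as glucose 6-phosphate. Hk1, the housekeeping form, stood at 133, 137 and 123 CPM in young and at 156, 145 and 149 CPM in old libraries. Every old library was above every young library, but the difference was small, 0.19 ± 0.14 on the log2 scale (SE, n = 3 each; edgeR adjusted p = 0.732). Hk2, the form induced on activation, stood at 19.3, 51.5 and 56.5 against 43.8, 75.2 and 57.2 CPM, so that young replicate 1 was 2.79-fold below the mean of the other young libraries and the groups overlapped. Hk2 made up 9.10%, 21.1% and 24.5% of hexokinase FPKM in young and 16.6%, 26.3% and 21.4% in old libraries. Gpi1, which turns glucose 6-phosphate into fructose 6-phosphate, stood at 558, 550 and 481 against 517, 462 and 438 CPM. Young replicate 1 was thus not the lowest young library for Gpi1, nor for Hk1.

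At phosphofructokinase, the committed step of glycolysis, the 3 isozyme genes differed from one another. Pfkp, the platelet-type subunit and the most abundant of them, stood at 220, 386 and 383 CPM in young and at 473, 572 and 503 CPM in old libraries. Pfkm, the muscle-type subunit, stood at 17.7, 10.7 and 15.6 against 8.07, 6.05 and 5.25 CPM, and Pfkl, the liver-type subunit, at 56.7, 95.1 and 136 against 82.7, 80.5 and 77.6 CPM. The groups did not overlap for Pfkp, higher in old libraries, or for Pfkm, lower in old libraries, and they overlapped for Pfkl through young replicate 1. The log2 difference of Pfkp was 0.65 ± 0.25 (edgeR adjusted p = 0.390) and became 0.42 ± 0.13 without young replicate 1 (edgeR adjusted p = 0.0772). Pfkp was called in 2 of 8 other settings of that fit. For Pfkm the log2 difference was -1.18 ± 0.28 with all libraries (edgeR adjusted p = 0.127, DESeq2 adjusted p = 0.00389). Without young replicate 1 it was -1.03 ± 0.27 (edgeR adjusted p = 0.0521), and Pfkm was called in 4 of 7 other settings of that fit. DESeq2 without young replicate 1 called all 3, Pfkp higher (adjusted p = 0.0124), Pfkm lower (0.0102) and Pfkl lower (0.0238).

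As a share of the summed FPKM of the step, Pfkp held 68.4%, 76.1% and 68.6% in young and 81.9%, 83.8% and 83.7% in old libraries. Pfkl held 23.4%, 21.3% and 27.8% against 16.3%, 15.0% and 15.2%, and Pfkm 8.14%, 2.59% and 3.57% against 1.78%, 1.23% and 1.12%. All 3 shares separated the groups, and they were the only ones to do so among the 18 isozyme shares tested. In means, Pfkp held 71.0% ± 4.37 in young and 83.1% ± 1.04 in old libraries (SD, n = 3 each). The two-sided exact permutation p was 0.1 for each of the 3, which is the smallest that 3 against 3 libraries can give, and 0.6 after Benjamini-Hochberg adjustment over the 18 shares. The shares of 1 step are tied to each other, since they sum to the whole.

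The Pfkp level rests largely on transcript models that RefSeq marks as non-coding. The 3 models with an XR prefix held 89.4%, 89.9% and 78.7% of Pfkp FPKM in young and 80.9%, 92.4% and 80.3% in old libraries. The 3 protein-coding models summed to 5.58, 10.7 and 21.4 FPKM in young and to 25.1, 10.9 and 26.1 FPKM in old libraries. On the coding models alone the groups overlapped. RSEM divides reads among models that share exons, so this division is an estimate.

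**Figure D3:**
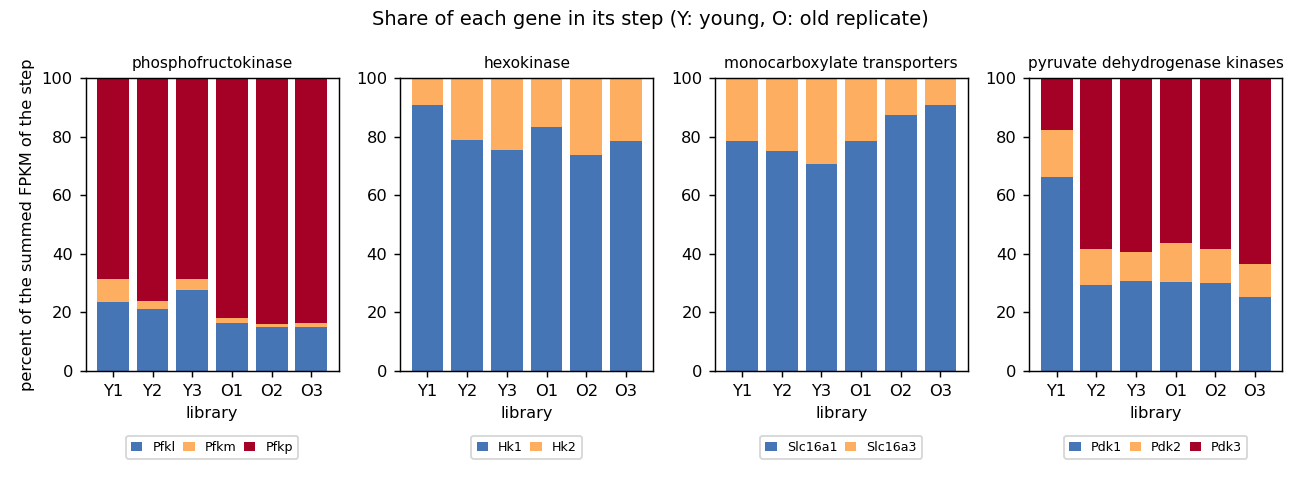
Share of each gene in the summed FPKM of its step (y axis, percent) in each library (x axis; Y young, O old, number the replicate), for phosphofructokinase, hexokinase, monocarboxylate transporters and pyruvate dehydrogenase kinases. Pfkp takes 81.9% to 83.8% of phosphofructokinase in old and 68.4% to 76.1% in young libraries, and Pdk1 takes 66.2% of its step in young replicate 1 against 25.4% to 30.7% elsewhere.

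In the chain from aldolase to pyruvate kinase, Gapdh had a mean of 1579 FPKM over the 6 libraries, Aldoa 597 FPKM, Pkm 485 FPKM and Eno1 311 FPKM; Ldha, the next step, had 429 FPKM. Tpi1 (chr6:124810586-124814158), triose phosphate isomerase, stood at 35.0, 131 and 187 CPM in young and at 82.1, 79.1 and 59.0 CPM in old libraries. Its old libraries lay between young replicate 1, which was 4.54-fold below the mean of the other young libraries, and young replicates 2 and 3. With all libraries the log2 difference was -0.68 ± 0.52 (SE; edgeR adjusted p = 0.761). Without young replicate 1 Tpi1 was 2.17-fold lower in old libraries (SE 0.19 on the log2 scale, edgeR adjusted p = 0.0157). It was called in 8 of 8 other settings of that fit, with a DESeq2 adjusted p of 3.76e-06. With old replicate 2 also left out, edgeR did not call it.

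Pgam1 (chr19:41911871-41918665), phosphoglycerate mutase, stood at 113, 312 and 320 CPM in young and at 222, 212 and 197 CPM in old libraries. The same order held as for Tpi1, with young replicate 1 lowest and the other young libraries highest. The log2 difference moved from -0.24 ± 0.37 with all libraries (edgeR adjusted p = 0.904) to -0.59 ± 0.11 without young replicate 1. In that fit Pgam1 fell (edgeR adjusted p = 0.0184). It was called in 7 of 8 other settings of that fit (DESeq2 adjusted p = 9.97e-06). With old replicate 2 or 3 also left out, edgeR did not call it.

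The other enzymes of the chain were called in neither fit by edgeR. Aldoa, aldolase, stood at 568, 999 and 1097 CPM in young and at 983, 864 and 953 CPM in old libraries. Gapdh, which reduces NAD, stood at 1083, 2780 and 2397 against 2169, 1985 and 2029 CPM. Pgk1, the first ATP-forming enzyme, stood at 189, 431 and 583 against 349, 360 and 353 CPM. In each of these genes young replicate 1 was the lowest of the 6 libraries and the 2 other young libraries were the highest.

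Eno1, the main enolase, stood at 434, 656 and 744 CPM in young and at 555, 485 and 462 CPM in old libraries. Pkm, pyruvate kinase, stood at 633, 1303 and 1607 against 1059, 1083 and 994 CPM. Eno3, the muscle-type enolase, ran the other way within the young group, at 27.3, 19.1 and 15.7 CPM, and stood at 15.1, 13.7 and 10.8 CPM in old libraries. The groups did not overlap for Eno3 (log2 difference -0.65 ± 0.26; edgeR adjusted p = 0.417), whose span overlaps Pfn1, a gene with a mean of 1707 FPKM.

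Taking the most abundant gene of each of the 10 steps from Gpi1 to Ldha, young replicate 1 lay below both other young libraries in 9, the exception being Gpi1. The median log2 difference of the 10 was -0.17 with all libraries and -0.43 without young replicate 1, where 9 of the 10 were negative and Pfkp was positive, at 0.42, although limma on log2(TPM + 1) turned Gpi1 to 0.02. With all libraries Pfkp, at 0.65, and Aldoa, at 0.07, were positive, and several others were so close to 0 that the scaling set their sign: Gapdh, at -0.02, became 0.13 with TPM scaling and 0.15 with quantile scaling, while Pgk1 and Ldha became 0.01 with TPM scaling. Without young replicate 1 DESeq2 called Gapdh, Pgk1, Eno1, Pkm and Ldha lower in old libraries, which edgeR did not, with edgeR adjusted p of 0.191, 0.064, 0.0624, 0.0781 and 0.0938.

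Lactate dehydrogenase was mostly Ldha, the subunit that favours lactate formation. Ldha stood at 430, 810 and 943 CPM in young and at 679, 667 and 670 CPM in old libraries, and held 92.4% to 96.1% of the step's FPKM in young and 95.7% to 97.1% in old libraries. Ldhb, the heart-type subunit, stood at 27.8, 27.5 and 30.9 against 24.0, 15.6 and 20.3 CPM. The groups did not overlap for Ldhb, and young replicate 1 lay between the other young libraries. Its log2 difference was -0.53 ± 0.20 (SE, n = 3 each, edgeR adjusted p = 0.390) and -0.55 ± 0.20 without that library (edgeR adjusted p = 0.117). Ldhb was called in 0 of 8 other settings of the fit without young replicate 1.

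Lactate leaves the cell through monocarboxylate transporters. Slc16a3 (MCT4; chr11:120948484-120959000), a low-affinity exporter of highly glycolytic cells, stood at 9.67, 23.2 and 33.6 CPM in young and at 14.2, 9.72 and 5.79 CPM in old libraries. Young replicate 1 lay among the old libraries, and the other young libraries were above all of them. The log2 difference was -1.16 ± 0.49 with all libraries (edgeR adjusted p = 0.461). Once that library was left out, Slc16a3 fell by 1.52 ± 0.33 on the log2 scale (2.87-fold lower, edgeR adjusted p = 0.0318). This was the largest size of difference among the 5 called members, at the lowest counts, 106 to 582 per library. Slc16a3 was called in 8 of 8 other settings of that fit (DESeq2 adjusted p = 0.000403). With old replicate 2 also left out, edgeR did not call it.

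Slc16a1 (MCT1), the more widespread transporter, stood at 65.1, 130 and 150 CPM in young and at 93.5, 119 and 104 CPM in old libraries and was not called by edgeR in either fit; without young replicate 1, DESeq2 called it lower (adjusted p = 0.0484). Slc16a3 held 21.4%, 24.7% and 29.2% of the FPKM of the 2 transporters in young and 21.5%, 12.7% and 9.15% in old libraries. The groups overlapped by a narrow margin, between young replicate 1 and old replicate 1 (two-sided exact permutation p = 0.2, adjusted p = 0.72).

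**Figure D4:**
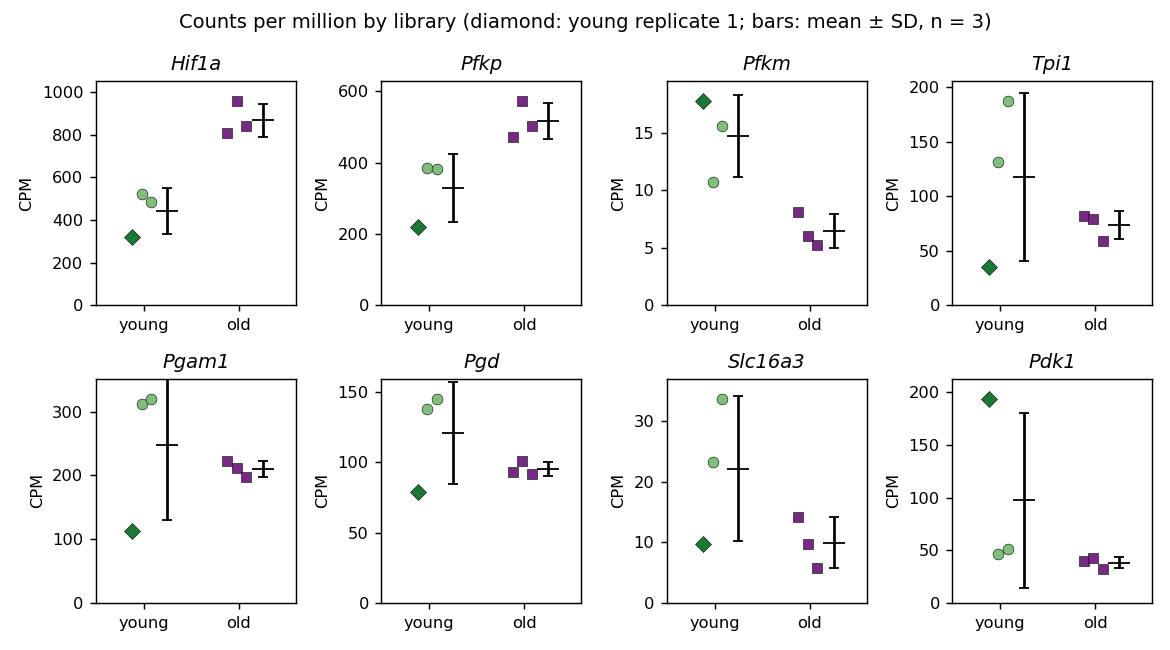
CPM by library (y axis, linear, starting at 0) for the 5 members called without young replicate 1 and for Pfkp, Pfkm and Pdk1; diamonds are young replicate 1, circles the other young libraries, squares the old libraries, and bars the mean ± SD over the 3 libraries of a group. Young replicate 1 is the lowest library for Tpi1, Pgam1 and Pgd and the highest, at 194 CPM, for Pdk1, while for Hif1a and Pfkp all old libraries lie above all young ones.

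The enzymes that set fructose 2,6-bisphosphate, and Bpgm, were not called by edgeR in either fit. Pfkfb3, which makes the phosphofructokinase activator fructose 2,6-bisphosphate, stood at 69.9, 110 and 97.4 CPM in young and at 86.9, 97.1 and 94.2 CPM in old libraries. Pfkfb4, a related enzyme, stood lower, at 7.26 to 10.6 CPM in young and 6.64 to 9.82 CPM in old libraries. Bpgm, which makes 2,3-bisphosphoglycerate, ranged from 15.7 to 20.5 CPM in young and from 14.5 to 18.3 CPM in old libraries. The groups overlapped for all 3.

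Pyruvate dehydrogenase kinases inhibit pyruvate dehydrogenase and so limit the conversion of pyruvate to acetyl-CoA inside mitochondria. Pdk1 stood at 194, 46.8 and 51.6 CPM in young and at 39.6, 42.3 and 32.3 CPM in old libraries. All old libraries were below all young ones, yet young replicate 1 was 3.93-fold above the mean of the other young libraries. Without it the log2 difference went from -1.35 ± 0.54 (edgeR adjusted p = 0.423) to -0.37 ± 0.15 (edgeR adjusted p = 0.155). Pdk1 was called in 0 of 8 other settings of that fit. Pdk2 followed in young replicate 1, with 24.6, 9.73 and 7.86 against 8.84, 8.69 and 7.21 CPM. Pdk3 went the opposite way in that library, with 23.6, 40.4 and 41.8 against 32.8, 38.4 and 36.6 CPM. Pdk1 thus made up 66.2% of the FPKM of the 3 kinases in young replicate 1 and 25.4% to 30.7% in the other 5 libraries. Txnip, an inhibitor of glucose uptake that was not a member, was also highest in young replicate 1, at 499 CPM against 121 to 225 CPM elsewhere. The naive marker Il7r was highest there too, at 684 CPM against 27.6 to 114 CPM. Both genes were picked after their values were seen. Of the 5 naive markers, young replicate 1 lay above both other young libraries for 4 and below both for 1.

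Among the 6 pentose phosphate enzymes, young replicate 1 was below both other young libraries in all 6. Pgd (chr4:149149991-149166705), 6-phosphogluconate dehydrogenase, the second NADPH-forming enzyme, stood at 78.8, 138 and 145 CPM in young and at 93.2, 101 and 91.5 CPM in old libraries. Old libraries lay between young replicate 1 and the other young libraries. The log2 difference was -0.34 ± 0.24 with all libraries (edgeR adjusted p = 0.732). In the fit without young replicate 1, Pgd fell by 0.57 ± 0.11 on the log2 scale (1.49-fold lower, edgeR adjusted p = 0.0230). It was called in 7 of 8 other settings of that fit (DESeq2 adjusted p = 7.49e-05). With old replicate 2 or 3 also left out, edgeR did not call it.

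G6pdx, glucose 6-phosphate dehydrogenase, which opens the pathway, stood at 70.1, 101 and 76.2 CPM in young and at 92.6, 87.9 and 87.4 CPM in old libraries, and was not called by edgeR in either fit. The log2 difference was 0.12 ± 0.18 with all libraries and 0.01 ± 0.14 without young replicate 1 (SE). The 2 NADPH-forming enzymes were thus called differently, but the difference between them was not tested.

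In the non-oxidative branch, Tkt, transketolase, stood at 276, 547 and 457 CPM in young and at 399, 417 and 361 CPM in old libraries. Taldo1, transaldolase, stood at 97.1, 127 and 151 against 113, 90.5 and 104 CPM. Rpia, which makes ribose 5-phosphate, stood at 37.4, 66.5 and 100.1 against 62.2, 62.8 and 71.3 CPM. Rpe, the epimerase beside it, ranged from 26.3 to 40.9 CPM in young and from 37.6 to 42.9 CPM in old libraries. None of the 4 was called by edgeR in either fit, and without young replicate 1 DESeq2 called Tkt (adjusted p = 0.0493) and Taldo1 (adjusted p = 0.0305) lower in old libraries.

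Other genes around these pathways were read from lists that hold no member. For comparison, edgeR called 0.875% of all tested genes with all libraries and 8.84% without young replicate 1. At an unadjusted p under 0.05 these shares were 10.6% and 28.1%. Of 27 tested neighbours of glycolysis, 0 were called by edgeR with all libraries, with 3 at an unadjusted p under 0.05. Without young replicate 1 there were 3 calls. Galm, which turns over glucose anomers, and Gys1, glycogen synthase, rose by 1.07 and 0.90 on the log2 scale. Pgp, which clears a glycolytic side product, fell by 0.71. Of 8 tested neighbours of the pentose phosphate pathway, 0 were called by edgeR with all libraries, and 0 had an unadjusted p under 0.05. Pgls, the lactonase between G6pdx and Pgd, fell by 0.53 on the log2 scale without young replicate 1 (edgeR adjusted p = 0.047). Of 17 tested genes of pyruvate entry and use, 0 were called by edgeR in either fit, with 1 and 6 at an unadjusted p under 0.05.

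Because Hif1a was the only member that edgeR called higher in old libraries without young replicate 1, 28 tested genes of the HIF pathway outside glycolysis were read in the same way. With all libraries 0 were called by edgeR and 3 had an unadjusted p under 0.05, against 0.875% and 10.6% of all tested genes. Without young replicate 1 edgeR called 2 higher and 3 lower, against 5.86% and 2.98% of all tested genes. In that fit Egln3, a prolyl hydroxylase that marks HIF for destruction, and Rora, a nuclear receptor, rose by 1.16 and 1.85 on the log2 scale. Mif, Higd1a and Fam162a fell by 0.62, 0.76 and 0.72. Egln3 stood at 11.6, 15.3 and 17.3 CPM in young and at 31.6, 32.7 and 45.5 CPM in old libraries, with no overlap. The median log2 difference of the 28 was -0.15 with all libraries and -0.01 without young replicate 1, and 14 of 28 were then negative and 14 positive.

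Transcript models and neighbours limit some of these levels. Of the 34 members, 11 had 1 RefSeq model in the table and 23 had several. For Pkm, whose models share most exons, NM_011099.3 held 25.8% to 56.8% of the FPKM in young and 47.6% to 63.4% in old libraries, the lowest being young replicate 3, and NM_001253883.1 was listed at 0 in all 6. Gapdh-ps15, a Gapdh copy, was given 894 to 2310 counts per library, and summing it with Gapdh changed no call. Strand was not given in the sources used here, so reads could not be assigned with certainty where Pfkm overlaps Senp1, Pfkp overlaps Pitrm1, Tpi1 overlaps Spsb2, Slc16a3 overlaps Csnk1d, G6pdx overlaps Ikbkg and Rpe overlaps Kansl1l.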

How the data were processed

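Total RNA of 6 CD4+ T-cell libraries, 3 young and 3 old, was sequenced. For each library the authors deposited an expected count and an FPKM per transcript, in 1 table of 66712 RefSeq transcripts, per the file headers. The submitters' processing notes name Bowtie, RSEM and GRCm38 (mm10). Their versions, the strand setting and the annotation are not given in the sources used. RSEM divides reads among transcripts by a model, so isozymes, copies and overlapping genes share uncertainty.

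Both quantities were summed per Entrez gene and named from RefSeq on GRCm38.p6 (19830 of 19977 matched). Summed counts were rounded and tested with edgeR 4.0.16 (R 4.3.3): quasi-likelihood, TMM factors, no replicate block, a filter of mean FPKM at least 1, Benjamini-Hochberg adjustment over all 10509 genes, calls under 0.05. Standard errors are the log2 difference over the square root of F. CPM uses TMM-scaled totals. Shares used FPKM and an exact permutation test. The test was checked on simulated data in which all libraries of a group shared the same mean for each gene. That check did not cover a library set apart from its group, or the fits without young replicate 1. Figures were drawn with matplotlib 3.10.9.

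The members and lists were chosen with earlier results of these data known. All members may be named; per-library values are given for members called in either fit, with groups that do not overlap, or most abundant in their step, and also, outside this rule, for Slc2a3, Hk2, Pfkl and Pdk2 beside the other gene of their step; of the lists, called genes and up to 3 with the smallest p. In the list of naive markers, 1 gene is not reported here and was left out of the sum. Txnip and Il7r were picked after their values were seen. Alternatives were the replicate block, each library left out, RLE factors, library totals, other filters, DESeq2 1.42.0, robust edgeR and limma 3.58.1 on log2 FPKM or TPM; the same on the fit without young replicate 1, and Gapdh summed with Gapdh-ps15, were added after seeing the data.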

Additional observations from a re-analysis of the deposited data

How the results depend on the processing

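With all 6 libraries, 92 genes were called; this became 0 to 929 when 1 library was left out, the highest being without young replicate 1, 203 with no filter, 55 at a mean FPKM of at least 5, 501 with DESeq2 and 49 with limma on log2(TPM + 1). Members called, 0 in that fit, were 0 to 5 with 1 library left out and 2 with DESeq2. Without young replicate 1 the 5 members became 16 with DESeq2, 0 to 7 when a second library was left out (0 without young replicate 3 or old replicate 2), 6 with RLE factors, with robust edgeR or with no filter, each adding Pfkm, and 4 with limma on log2(TPM + 1). Fits that left out young replicate 2 or 3 as the second library hold 1 young library, and their calls are not interpreted. Same-numbered libraries deviated together at 0.223, -0.029 and 0.182, so the numbers were not taken to pair them. A replicate block gave 119 calls and 0 members. None of the 5 members that edgeR called changed sign. Of the 16 that DESeq2 called without young replicate 1, Gapdh, Pgk1, Ldha, Pfkl, Pkm, Slc16a1 and Tkt did. Gapdh became 0.085 with the replicate block, 0.0010 with library totals and 0.10 with limma on log2(FPKM + 1) and on log2(FPKM + 0.1). It became 0.13 with TPM and 0.15 with quantile scaling. Pgk1 became 0.014 and 0.028, and Ldha 0.0092 and 0.018, with TPM and quantile scaling. Pfkfb3 became -0.0084 with RLE factors and with DESeq2 and -0.00060 at a mean FPKM of at least 5. Rpia became 0.050 with the block, 0.060 and 0.065 with limma on log2(FPKM + 1) and log2(FPKM + 0.1), 0.10 with TPM and 0.084 with quantile scaling. With 1 library left out, signs also changed within the ranges -0.072 to 0.42 (Slc2a3), -0.53 to 0.072 (Pfkl), -0.17 to 0.24 (Aldoa), -0.33 to 0.24 (Gapdh), -0.52 to 0.18 (Pgk1), -0.48 to 0.10 (Pkm), -0.38 to 0.11 (Ldha), -0.41 to 0.10 (Slc16a1), -0.16 to 0.15 (Pfkfb3), -0.19 to 0.16 (Pdk3), -0.36 to 0.10 (Tkt), -0.35 to 0.32 (Rpia) and -0.045 to 0.24 (Rpe). The causes were not tested. Low counts limit Pfkm (96 to 306 per library), Slc16a3 (106 to 582), Pfkfb4 (123 to 183) and Pdk2 (132 to 425).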
